A study of Mus musculus with 15 samples.

Results

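Cytosolic nucleic acid sensing was examined through 10 genes: Mb21d1 (the older symbol of cGAS), Aim2, Tlr3, Tmem173 (the older symbol of STING), Mavs, Tbk1, Ikbke, Irf3, Trex1 and Samhd1. They were taken by name from the 52526 genes listed for each mouse. The tissue was the left 4th mammary gland of female nu/nu nude mice, which lack a thymus. BDE-47, a congener of the polybrominated diphenyl ether (PBDE) flame retardants, was delivered at 0.03 mg/kg/d through subcutaneous osmotic pumps to 7 mice, and 8 mice carried pumps with only the vehicle (PEG300, 1%DMSO). Dosing began after 8 weeks of age and lasted 16 weeks, with the pump replaced after 8 weeks. The mice also served a xenograft experiment, and whether a given mouse had a graft near the gland was not used here. Each mouse gave 1 QuantSeq 3′ FWD library, so each value is an independent animal.

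The pathway works as a relay. cGAS binds DNA in the cytosol and makes the messenger cGAMP, which activates STING. RNA sensors signal instead through MAVS, and TLR3 detects double-stranded RNA in endosomes. These routes converge on the kinases TBK1 and IKKε, which phosphorylate IRF3 and start the transcription of type I interferon and chemokine genes, while the enzymes TREX1 and SAMHD1 limit the nucleic acids and nucleotides that could feed the relay. In a mammary gland these genes are used by macrophages, other leukocytes, endothelium and stroma as well as by epithelium.

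Values are log2(CPM), where CPM is the read count of a gene scaled to a common total of mapped reads, and a gene under 1 CPM in a mouse is listed at 0. Depth ranged from 10.06 to 19.58 M mapped reads, so 1 CPM stood for 10.06 to 19.58 reads. Between 6929 and 12682 genes were at or above that floor in a mouse. A 0 is not proof of absence, since Tbp and Pgk1, which every cell uses, were each listed at 0 in 12 of 15 mice. Luminal epithelial markers summed to 509 to 2378 CPM in 12 mice. They were lower, at 30.3, 118 and 130 CPM, in vehicle replicates 6 and 8 and BDE-47 replicate 6. Vehicle replicates 6 and 8 stood apart: all 8 B cell and all 6 T cell markers were above the floor there, against at most 1 and 2 in any other mouse, and summed adipocyte markers were at 434 and 1057 CPM against 10747 to 31170 CPM in the other 6 vehicle mice. In the 6 BDE-47 mice other than replicate 6, adipocyte markers summed to 9134 to 15707 CPM. Medians in these 6 BDE-47 mice and those 6 vehicle mice were 14267 and 25824 CPM for adipocyte markers. They were 148 and 244 CPM for endothelial markers, and 369 and 253 CPM for macrophage markers. These marker differences were not tested. BDE-47 replicate 6 held 87489.5 CPM of 6 skeletal muscle markers, against 40.9 to 163 CPM elsewhere. Differences are therefore also given without vehicle replicates 6 and 8 and, for some genes, without all 3 mice.

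None of the 10 genes differed between BDE-47 and vehicle mice beyond the spread between mice. Of the 10, 9 reached 1 CPM in at least 1 mouse and 6 reached it in at least 7 mice, the level needed for the limma test. Mean log2(CPM) was above the vehicle mean for Mavs, Tlr3, Irf3 and Tbk1 and below it for Tmem173 and Samhd1, so 4 of 6 tested genes lay above 0 and 2 below, where 49.1% and 50.9% of all 9506 genes tested did. The median difference was 0.56 on the log2 scale over the 6 genes and -0.02 over all genes tested, and 1.10 and -0.07 without vehicle replicates 6 and 8. After Benjamini-Hochberg adjustment over all genes, limma called 0 of the 6 at p under 0.05, and 0.0% of all genes tested. Without adjustment it also called 0 of the 6, against 4.65% of all genes tested (1.94% higher and 2.71% lower with BDE-47). Differences past 2-fold were upward for Mavs and Tlr3 (13.0% of all genes tested) and downward for Tmem173 (13.2%). The 2 upward ones depended on the scale: as log2 ratios of mean CPM, Mavs was at 0.57 and Tlr3 at 0.84, neither past 2-fold. On that scale Tmem173 was at -2.19 and Samhd1 at -1.09. The highest CPM of both genes was in vehicle replicates 6 and 8 (132 and 77.6 for Tmem173, 285 and 225 for Samhd1). Without those 2 mice the differences in mean log2(CPM) were -0.94 for Tmem173 and -0.10 for Samhd1.

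**Figure D1:**
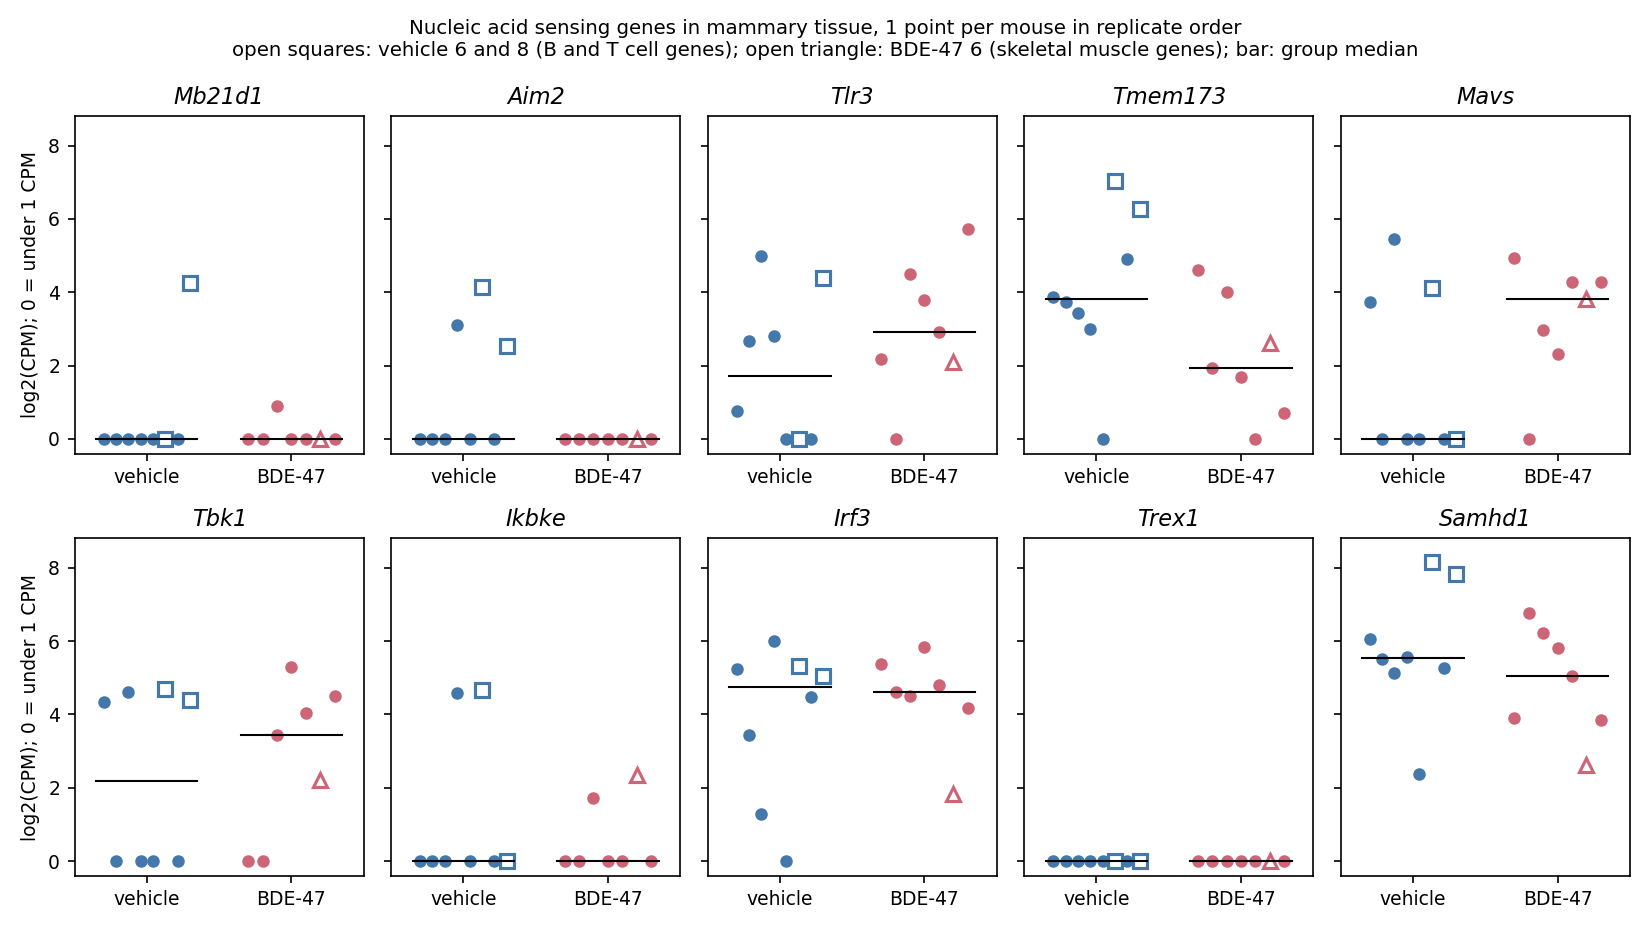
Level of each of the 10 genes in each mouse, as log2(CPM), with 0 for a gene under 1 CPM. Points are mice in replicate order, black bars are group medians, open squares are vehicle replicates 6 and 8 and the open triangle is BDE-47 replicate 6. The groups overlap in every panel, Trex1 is at 0 in all 15 mice, and the open squares are the 2 highest mice for Tmem173 and Samhd1.

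QuantSeq counts 1 fragment near the 3′ end of a transcript, so a ranking of genes by CPM needs no correction for length. It still depends on how fully the reads of each gene were captured and assigned, which was not tested. Pgk1, which every cell uses, was listed at 0 in 12 of 15 mice. By mean CPM over the 15 mice, Samhd1 (70.3) came first, followed by Irf3 (27.0), Tmem173 (22.8), Tbk1 (12.3), Tlr3 (11.5), Mavs (11.4), Ikbke (3.84), Aim2 (2.13) and Mb21d1 (1.40). Only for Samhd1 over Irf3 and Mavs over Ikbke did neighbours in this order differ in log2(CPM) at an unadjusted exact sign-flip p under 0.05 (two-sided, p = 0.00763 and p = 0.0488), and after Benjamini-Hochberg adjustment over the 8 neighbouring pairs these became 0.0610 and 0.195, so no neighbouring pair passed. Pairs further apart were not tested. By mean CPM the group orders differed for STING: in vehicle mice Tmem173 (35.9 mean CPM) came second, above Irf3 (26.2). In BDE-47 mice Tmem173 (7.88) came after Samhd1 (43.8), Irf3 (27.9), Tlr3 (15.1), Mavs (13.8) and Tbk1 (13.3). The vehicle mean of Tmem173 included 132 and 77.6 CPM in vehicle replicates 6 and 8. By median CPM, Irf3 (27.4) lay above Tmem173 (14.0) in vehicle mice as well.

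Mb21d1, the sensor that opens the cGAS-STING route (chr9:78430518-78443237 in GRCm38.p6), was below the floor in 13 of 15 mice. It was at 4.26 log2(CPM) in vehicle replicate 8, from 229 reads, and at 0.90 in BDE-47 replicate 3, from 26 reads. With 1 mouse per group above the floor, the difference in mean log2(CPM) of -0.40 did not pass (two-sided exact permutation p = 1). Vehicle replicate 8 was one of the 2 mice with B and T cell genes, and without those 2 mice the difference was 0.13 (0.15 without BDE-47 replicate 6 as well).

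Aim2, a DNA sensor that assembles an inflammasome (chr1:173349547-173466040), was seen only in vehicle mice. It was at 3.10 log2(CPM) in replicate 4, 4.14 in replicate 6 and 2.53 in replicate 8, from 120, 274 and 69 reads, and was listed at 0 in the other 5 vehicle mice and in all 7 BDE-47 mice. That pattern of 3 against 0 mice did not pass Fisher's exact test (two-sided, p = 0.2). Among the 16301 genes above the floor in any mouse, 0.632% were above it in 3 or more vehicle mice and in no BDE-47 mouse. The count became 1 of 6 against 0 of 7 without vehicle replicates 6 and 8, and the part of the lymphocyte genes in it was not tested. In RefSeq the Aim2 gene overlaps Cadm3, which was above the floor in 8 mice, and the strand setting of the authors' counting is not given in the sources used here.

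Tlr3, the endosomal receptor for double-stranded RNA (chr8:45395665-45411075), was listed at 0 in 3 of the 8 mice on vehicle and in 1 of the 7 on BDE-47. Its log2(CPM) had a lowest value of 0, a median of 1.72 and a highest value of 4.98 in vehicle mice. In BDE-47 mice the corresponding values were 0, 2.91 and 5.72. The groups overlapped along most of their range. The mean was 1.08 higher with BDE-47 on the log2 scale (SE 1.10, 95% interval -1.14 to 3.29, n = 8 and 7, limma adjusted p = 0.982, exact permutation p = 0.297). Leaving out vehicle replicates 6 and 8 gave 1.16, and leaving out BDE-47 replicate 6 as well gave 1.31.

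Tlr3 was also the single gene of the list with a match to either motif searched in the RefSeq promoter table of GRCm38.p6, which covers 250 bases before to 50 after a transcription start. The motifs were the interferon-stimulated response element core GAAANNGAA, bound by ISGF3 and IRF factors, and the NF-kB core GGANTTTCC, each on both strands. The table held promoters for 9 of the 10 genes, Tmem173 being the exception. The interferon motif was in 0 of the 9 genes' promoters and the NF-kB motif in 1 of 9. Counted the same way, by gene with any of its promoters, the shares were 9.76% and 1.45% of all 27025 genes, and by promoter they were 8.56% and 1.25% of all 32851. Among other genes of the pathway, 18 of 61 with a promoter (29.5%) held the interferon motif and 5 held the NF-kB motif. Matches of both motifs occurred in 35 promoters and overlapped in 4. The Tlr3 promoter (chr8:45410331-45410630, minus strand) is shown with its NF-kB match, which starts at position -210 from the start site, in capitals. The promoter of Rsad2 (chr12:26456403-26456702, minus strand) is shown as an interferon-regulated contrast, with its interferon motif, read on the opposite strand and starting at -119, in capitals. A match describes letters and does not show binding.
Tlr3: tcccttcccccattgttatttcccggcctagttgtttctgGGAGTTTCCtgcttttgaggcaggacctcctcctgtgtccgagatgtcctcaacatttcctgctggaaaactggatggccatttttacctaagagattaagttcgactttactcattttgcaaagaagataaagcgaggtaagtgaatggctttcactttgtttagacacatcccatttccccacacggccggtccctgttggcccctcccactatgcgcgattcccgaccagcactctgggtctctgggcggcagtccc
Rsad2: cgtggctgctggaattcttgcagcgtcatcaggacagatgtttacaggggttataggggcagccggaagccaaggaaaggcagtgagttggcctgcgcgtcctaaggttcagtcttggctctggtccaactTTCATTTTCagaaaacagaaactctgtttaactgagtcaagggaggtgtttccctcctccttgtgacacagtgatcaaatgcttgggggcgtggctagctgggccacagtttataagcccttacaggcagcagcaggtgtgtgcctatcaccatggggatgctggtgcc

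Tmem173, which encodes the adaptor STING that receives cGAMP, had a lower mean with BDE-47. In vehicle mice its log2(CPM) had a lowest value of 0, a median of 3.81 and a highest value of 7.05, and in BDE-47 mice 0, 1.92 and 4.61. One mouse per group, replicate 5 of each, was listed at 0. The groups overlapped, with BDE-47 replicates 1 and 3 (4.61 and 3.99) above the vehicle median. The difference in means was -1.81 on the log2 scale (SE 1.05, 95% interval -3.94 to 0.32) and did not pass (limma adjusted p = 0.982, exact permutation test, two-sided, p = 0.0968).

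The 2 highest Tmem173 values, 132 and 77.6 CPM, were those of vehicle replicates 6 and 8, and no other mouse exceeded 30.3 CPM. Without these 2 mice the difference shrank to -0.94 (exact permutation p = 0.322), and it was -1.01 without BDE-47 replicate 6 as well. Leaving out a single mouse moved the value the other way, to -2.39 without vehicle replicate 5. The unadjusted exact permutation p was then 0.0175 (limma adjusted p = 0.919). That mouse was the only vehicle mouse at 0 for Tmem173, so it is singled out by the very value tested. STING is known to be abundant in macrophages and endothelium. Summed macrophage markers were 521 and 769 CPM in vehicle replicates 6 and 8, 97.5 to 612 CPM in the other vehicle mice and 91.7 to 384 CPM in BDE-47 mice. Summed endothelial markers were 176 and 287 CPM in vehicle replicates 6 and 8, within the 145 to 434 CPM of the other vehicle mice. They ranged from 49.3 to 251 CPM in BDE-47 mice. In vehicle replicates 6 and 8, B cell markers summed to 650 and 722 CPM and T cell markers to 427 and 257 CPM. No other mouse exceeded 9.87 CPM for B cell or 10.9 CPM for T cell markers. The part of these cells in the Tmem173 values was not tested, and in bulk tissue fewer cells of a type and less RNA per cell cannot be told apart.

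Mavs, the mitochondrial adaptor of the cytosolic RNA sensors (chr2:131234063-131248025), lay on the opposite side of the vehicle mean from STING. It reached 1 CPM in 3 of 8 mice given vehicle and in 6 of 7 given BDE-47 (Fisher's exact test, two-sided, p = 0.119), and 0.957% of genes above the floor in any mouse had a Fisher p under 0.05. The vehicle mice had a lowest and median log2(CPM) of 0 and a highest value of 5.46, held by replicate 3. Among BDE-47 mice the lowest value was 0, the median 3.81 and the highest 4.95. The highest value of all was thus a vehicle mouse, although most vehicle mice were listed at 0. The mean was 1.57 higher with BDE-47 (SE 1.11, 95% interval -0.67 to 3.81, limma adjusted p = 0.982, exact permutation p = 0.157). It was 1.70 higher without vehicle replicates 6 and 8 and 1.60 higher without BDE-47 replicate 6 as well. The size of the difference depended on how zeros are weighed: it was 0.57 as a log2 ratio of mean CPM (9.33 and 13.8 CPM, exact permutation p = 0.534) and 3.18 on log2(CPM + 0.1). Without vehicle replicate 3 it was 2.11. Removing BDE-47 replicate 2, the one dosed mouse at 0, gave counts of 3 of 8 and 6 of 6 (Fisher's exact test, unadjusted p = 0.0310), but that mouse is singled out by the very value tested.

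**Figure D2:**
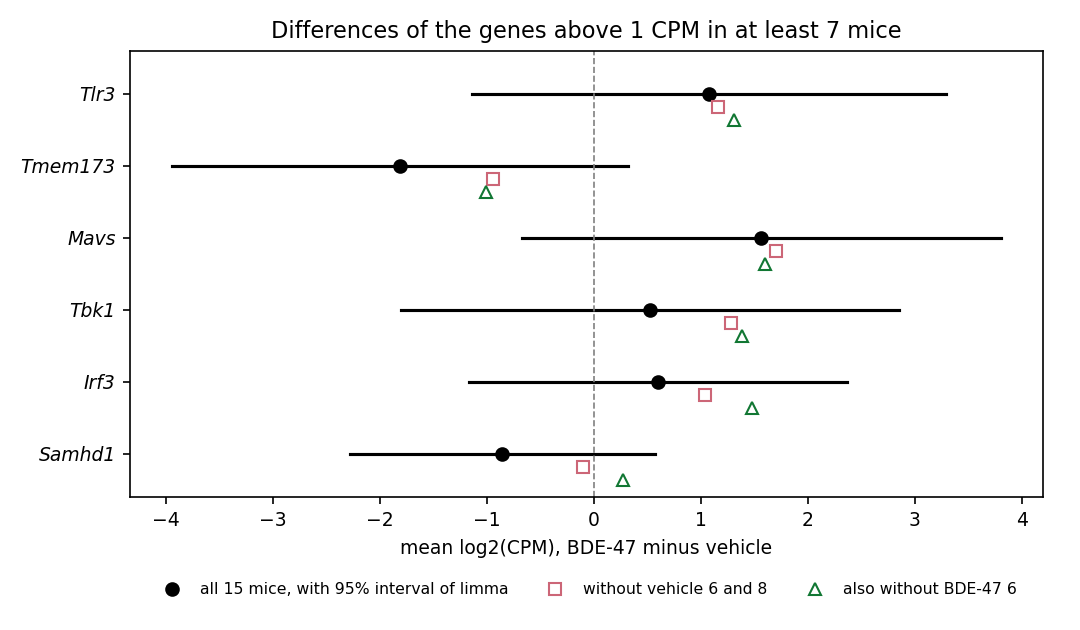
Difference in mean log2(CPM), BDE-47 minus vehicle, for the 6 genes at 1 CPM or more in at least 7 mice. Filled circles use all 15 mice, with the 95% interval of limma as a line, open squares leave out vehicle replicates 6 and 8, and open triangles also leave out BDE-47 replicate 6. Every interval spans 0, and the Samhd1 value moves from -0.85 to -0.10 and 0.27.

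The 2 kinases that phosphorylate IRF3 were patchy. Tbk1 (chr10:121546455-121586794), the kinase shared by the STING, MAVS and TLR3 routes, was listed at 0 in 4 of 8 vehicle and 2 of 7 BDE-47 mice. Its median log2(CPM) was 2.17 in vehicle mice, with a highest value of 4.68, and 3.43 in BDE-47 mice, with a highest value of 5.28. The difference of 0.53 (SE 1.15, 95% interval -1.80 to 2.85) was within the spread between mice (limma adjusted p = 0.994, exact permutation p = 0.647). Tbk1 was above the floor in both mice with B and T cell genes, and the difference was 1.29 when they were left out and 1.38 without BDE-47 replicate 6 as well. Single mice moved it as much the other way, to 0.11 without BDE-47 replicate 4 and to 0.20 without any one of vehicle replicates 2, 4, 5 and 7. Ikbke, which encodes the related kinase IKKε (chr1:131254600-131279601), was above the floor in 2 mice of each group. It reached 4.58 and 4.66 in vehicle replicates 4 and 6, and 1.72 and 2.35 in BDE-47 replicates 3 and 6 (difference -0.57, exact permutation p = 0.569), and the difference was -0.18 without vehicle replicates 6 and 8 and -0.48 without all 3 mice that stood apart.

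Irf3, the transcription factor at the end of the relay (chr7:44997648-45002848), was above the floor in 7 of 8 vehicle and 7 of 7 BDE-47 mice. Vehicle mice had a median log2(CPM) of 4.75 and a highest value of 6.01, with replicate 5 at 0. BDE-47 mice ranged from 1.82 to 5.84 with a median of 4.61. Group medians thus lay close together, and the difference in means of 0.60 (SE 0.88, 95% interval -1.17 to 2.37) did not pass (limma adjusted p = 0.994, exact permutation p = 0.536). The lowest dosed mouse was BDE-47 replicate 6, which held the skeletal muscle genes. Omitting vehicle replicate 5 lowered the difference to 0.05, and omitting BDE-47 replicate 6 raised it to 1.04. The difference was 1.04 without vehicle replicates 6 and 8 and 1.48 without all 3 mice that stood apart. In RefSeq the Irf3 gene lies 9 bases from Bcl2l12 and 97 bases from Scaf1.

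Trex1, the exonuclease that removes cytosolic DNA (chr9:109057932-109059723), was listed at 0 in all 15 mice, as were 69.0% of all genes. No comparison of its level was possible. RefSeq places the read-through transcript Atrip-trex1 over this gene and Atrip 23 bases away, and Atrip was also at 0 in all mice. On its other side Shisa5, 139 bases away, was above the floor in all 15 mice and reached 9.23 log2(CPM). How reads from such overlapping transcripts were assigned is not given in the sources used here.

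Samhd1, the enzyme that depletes deoxynucleotides (chr2:157097534-157135096), was the one gene above the floor in all 15 mice. Its log2(CPM) ran from 2.38 through a median of 5.54 to 8.15 in vehicle mice and from 2.62 through 5.03 to 6.76 in BDE-47 mice. The groups overlapped, and the difference of -0.85 (SE 0.70, 95% interval -2.28 to 0.57) did not pass (limma adjusted p = 0.982, exact permutation p = 0.334). Vehicle replicates 6 and 8 held 285 and 225 CPM, while the highest of the other mice held 108 CPM. Once these 2 mice were set aside the difference was -0.10 (exact permutation p = 0.893), and it was 0.27 without BDE-47 replicate 6 as well. Without vehicle replicate 5, the lowest mouse, it was -1.33 (limma adjusted p = 0.919). Tmem173 and Samhd1 were the 2 of 6 tested genes for which both vehicle replicates 6 and 8 exceeded each of the other 13 mice, as did 5.54% of all genes tested. Samhd1 is known to be abundant in resting lymphocytes, whose markers were high in these 2 mice alone, and the part of those cells in its level was not tested.

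Counted by mouse, between 1 and 7 of the 10 genes were above the floor in vehicle mice and between 3 and 8 in BDE-47 mice. Vehicle replicate 5 had only Samhd1. BDE-47 replicate 3 had 8 of the 10 and also the most genes of all kinds above the floor, 12682. The number of sensing genes detected therefore has to be read beside the number of all genes detected in the same mouse.

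**Figure D3:**
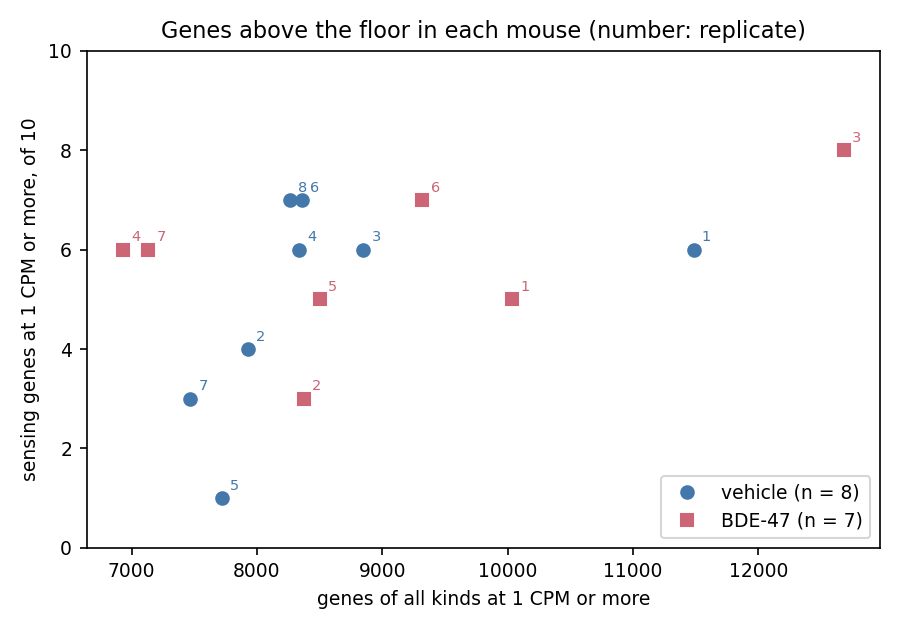
Number of the 10 sensing genes at 1 CPM or more (vertical axis) against the number of all genes at 1 CPM or more (horizontal axis) in each of the 8 vehicle (circles) and 7 BDE-47 mice (squares), with replicate numbers. Vehicle replicate 5 is lowest with 1 gene, BDE-47 replicate 3 is highest on both axes with 8 and 12682 genes, and the groups overlap.

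Genes of like pattern were sought for the 3 sensing genes above the floor in at least 12 mice. By Spearman's rho over the 15 mice, among 5500 genes above the floor in at least 12 mice, the closest to Tmem173 were Aak1 (0.927), an endocytic kinase, and Ighg2b (0.881), an immunoglobulin heavy chain constant region. Closest to Irf3 were Rpl30 (0.818), a ribosomal protein gene, and Rae1 (0.807), an mRNA export factor. Samhd1 was most like Rps20 (0.907), another ribosomal protein gene, and Gm9320 (0.904). These values describe mice that differ in library depth and in the number of genes detected, and they include the 2 lymphocyte-rich libraries. Without those 2 libraries the 6 values ran from 0.775 to 0.893 over 13 mice.

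Beyond the 10 genes, 79 further genes of nucleic acid sensing were listed, of which 78 were found and 58 were tested. Of these 58, limma called 0 after adjustment over all genes. The mean was above vehicle for 23 and below it for 35, with a median difference of -0.26 against -0.02 for all genes tested. That balance turned without vehicle replicates 6 and 8: of the same 58 genes, 33 then lay above 0 and 25 below, with a median of 0.23 against -0.07 for all genes tested, of which 46.6% lay above 0. Without BDE-47 replicate 6 as well, 36 lay above 0 and 22 below. At an unadjusted limma p under 0.05 there were 2 of 58, Azi2 upward and Rsad2 downward, against 4.65% of all genes tested.

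In the list of interferon and chemokine output, the 6 tested genes all had a mean below that of vehicle mice. None of the 6 is itself an interferon or chemokine: Isg15, Ifit1, Ifit3, Usp18 and Rsad2 are interferon-induced genes and Ifnar2 encodes a subunit of the interferon receptor. They had a median difference of -1.50, and -0.84 without vehicle replicates 6 and 8, when 4 of 6 lay below 0. Rsad2, the interferon-induced antiviral enzyme viperin whose promoter is shown above, reached 1 CPM in 7 of 8 mice given vehicle and in 2 of 7 given BDE-47. The log2(CPM) had a median of 4.07 and a highest value of 5.40 in vehicle mice, and a median of 0 and a highest value of 3.03 in BDE-47 mice. The difference was -2.74 (SE 1.03, unadjusted limma p = 0.0112, adjusted p = 0.982, exact permutation p = 0.00793), and it was -2.34 without vehicle replicates 6 and 8 and -2.19 without BDE-47 replicate 6 as well. Ifit3, which encodes a partner of the RNA-binding protein IFIT1, was at the other end of the list with a difference of -0.10, which became 0.77 without those 2 mice.

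Upstream, the lists were mixed. Among other RNA sensors, 1 of 4 tested genes lay above 0, Eif2ak2 (the kinase PKR, 0.94, and 1.14 without vehicle replicates 6 and 8). The lowest was Zbp1, a sensor of Z-form nucleic acids (-2.01, and -1.16 without those mice). Other DNA sensors and inflammasome partners had 2 of 6 above 0. Ddx41, a helicase, was highest at 0.69 (1.51 without those mice and 1.92 without BDE-47 replicate 6 as well). Ifi204, a member of the interferon-inducible DNA sensor family, was lowest at -1.72 (-1.18 without those mice). In the list of adaptors and regulators, 7 of 15 lay above 0. Azi2, an adaptor that binds TBK1, was above the floor in 4 of 8 mice on vehicle and 6 of 7 on BDE-47, with a difference of 2.17 (SE 1.04, unadjusted limma p = 0.0426, adjusted p = 0.982, exact permutation p = 0.0284). It was 2.15 without vehicle replicates 6 and 8 and 2.20 without all 3 mice that stood apart. The lowest of that list was Unc93b1, the chaperone of endosomal Toll-like receptors (-1.10, and -0.52 without vehicle replicates 6 and 8).

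Kinases and transcription factors outside the 10 genes had 5 of 11 above 0. The lowest was Irf7, the interferon-inducible partner of Irf3, at -1.82 (-1.01 without vehicle replicates 6 and 8 and -0.72 without all 3 mice). Rela, the p65 subunit of NF-kB, was highest at 0.41 (0.99 and 1.22 with the same mice left out). With those 2 vehicle mice left out, 9 of 11 lay above 0. Nucleic acid disposal and editing was evenly divided, with 5 of 10 above 0. The lowest was Rnaset2a, an RNase of acidic compartments, at -1.21 (-0.95 without those 2 mice). Rnaseh2c, a subunit of RNase H2, was highest at 0.93 (1.52 without those 2 mice). Carriers and a hydrolase of cGAMP had 3 of 6 above 0. Within that list the importer Slc19a1 was at -1.96 (limma adjusted p = 0.982, exact permutation p = 0.0412) and the channel subunit Lrrc8a at 1.65 (limma adjusted p = 0.982). Without vehicle replicates 6 and 8 they were at -2.38 and 1.52, and Lrrc8a was at 2.10 without all 3 mice. Across all genes tested, 4.42% had an unadjusted exact permutation p under 0.05.

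**Figure D4:**
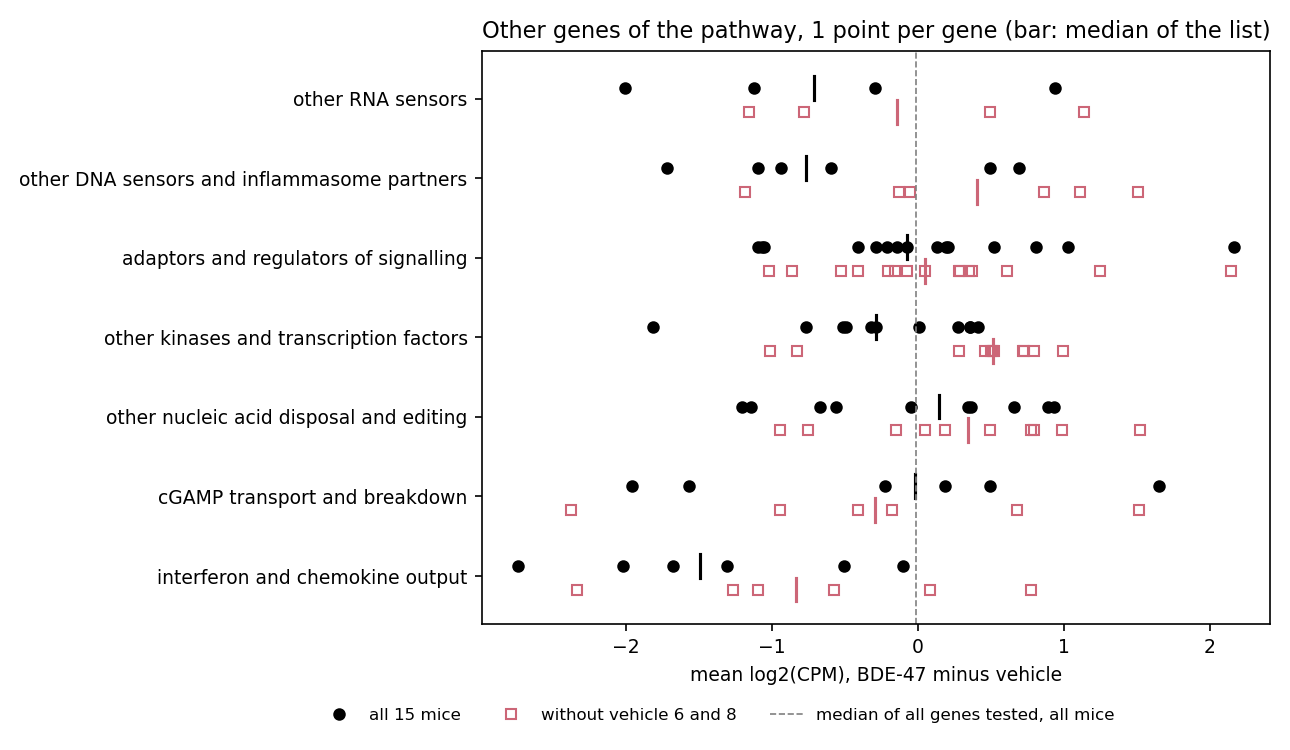
Difference in mean log2(CPM), BDE-47 minus vehicle, for 58 other tested genes of the pathway by list. Black points use all 15 mice, open squares show the same genes without vehicle replicates 6 and 8, short bars are list medians and the dashed line is the median of all genes tested, -0.02. All 6 black points of interferon and chemokine output lie below 0, and the list median is higher without vehicle replicates 6 and 8 in every list but that of cGAMP transport and breakdown.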

How the data were processed

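Total RNA of 15 mammary glands was sequenced with QuantSeq 3′ FWD. Per the submitters' processing notes the authors used STAR 2.5.3a and GRCm38, and per the study's methods STAR also gave the CPM. The deposited table of each mouse holds log2(CPM) on which the authors placed genes under 1 CPM at 0 (the log scale and this floor are inferred from the numbers themselves). Depth was recovered from the spacing of low CPM values, which were whole reads within 0.1 read for 100% of values. Each table has 52636 entries, and 110 with a repeated gene name were left out.

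Groups came from the treatment labels. Genes at 1 CPM or more in at least 7 mice (9506) entered limma 3.58.1 in R 4.3.3 (moderated statistics, prior variance with a trend) on log2(CPM) as deposited, with Benjamini-Hochberg adjustment. Each of the 10 genes was also tested with the exact permutation test over all 6435 ways to choose 7 of 15 mice and with Fisher's exact test of mice above the floor, both two-sided. Fitting was tested on simulated data. The study's xenograft covariate was not used here.

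Of the other pathway genes, those named have an unadjusted limma p under 0.05 or the largest difference in either direction within a list. Wfdc18, Isg15, Ifit1, Usp18, Ifnar2 and neighbouring genes were named after their values were seen. The genes and lists were chosen with earlier results of these data known. Promoters are from the RefSeq table of GRCm38.p6. Alternatives covered the pseudocount, filter, normalization, scale, test, replicate block and mice left out. Python 3.11.15, numpy 2.4.6, pandas 2.3.3, scipy 1.17.1 and matplotlib 3.10.9 were used.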

Additional observations from a re-analysis of the deposited data

Results flagged for a closer look

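Of 17 groups of values with at least 1 mouse above the floor, 3 held a mouse far from the others of its group by Dixon's criterion at the 95% level, which flags about 1 in 20 groups by chance. Mb21d1 was at 4.26 log2(CPM) in vehicle replicate 8 and at 0.90 in BDE-47 replicate 3, and in each case the rest of the group was listed at 0, so any value above the floor stands apart. Irf3 was at 1.82 in BDE-47 replicate 6, the mouse with skeletal muscle genes, and the next lowest BDE-47 mouse was at 4.16. The part of the muscle RNA in the Irf3 value was not tested.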

How the results depend on the processing

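No alternative gave any of the 10 genes or the other pathway genes an adjusted limma p under 0.05, the lowest being 0.807. Over all genes, leaving out vehicle replicates 6 and 8 and BDE-47 replicate 6 together, a choice made after seeing the data, called 1 gene of 8319, Wfdc18 (difference 1.78, adjusted p = 0.0439), a gene outside the pathway. The number of sensing genes with an unadjusted exact permutation p under 0.05 ranged from 0 to 1 when single mice were left out, the 1 being Tmem173 without vehicle replicate 5 (p = 0.0175). Fisher's exact test ranged from 0 to 1 likewise, the 1 being Mavs without BDE-47 replicate 2 (p = 0.0310), the one dosed mouse at 0.

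Of 550 values of single genes under the alternatives, 533 kept their direction and their side of the threshold and 17 turned direction, 4 of them among the 10 genes. No adjusted limma p of these genes passed in any setting, so the count is one of direction. It does not measure robustness, since the other pathway genes in it were named by their differences or p-values in these data. Samhd1 was at 0.27 without vehicle replicates 6 and 8 and BDE-47 replicate 6. Mb21d1 was at 0.13 without vehicle replicate 8 or without vehicle replicates 6 and 8, and at 0.15 without BDE-47 replicate 6 as well. On linear CPM, Rela was at -0.10 and Ddx41 at -0.51. When single mice were left out, Rela ranged from -0.32 to 0.66, Ifit3 from -0.60 to 0.39 and Mb21d1 from -0.53 to 0.13. Ifit3 was also at 0.77 without vehicle replicates 6 and 8, at 1.20 without BDE-47 replicate 6 as well and at 0.16 with the replicate block. The cause of these turns was not tested.

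Same-numbered mice had residual correlations of -0.02 to 0.05. When each dosed mouse was compared with all 8 vehicle mice, 4 of 7 correlated best with their own number. These values do not settle whether same-numbered mice were paired. The replicate block uses the 14 mice numbered 1 to 7, so it also lacks vehicle replicate 8, and its differences equal those without that mouse (Tmem173 -1.49, Mavs 1.33, Samhd1 -0.56). It called 0 of 9196 genes, with 374 at an unadjusted p under 0.05 against 339 in the same 14 mice without the block. Limma without a filter, which adds Mb21d1, Aim2 and Ikbke, called 0 of 9 sensing genes (0 at an unadjusted p under 0.05), and size factors and other pseudocounts were not run for these 3. Leaving out vehicle replicate 5 put 2 of the 6 tested sensing genes, Tmem173 and Samhd1, at an unadjusted limma p under 0.05. In the same setting 473 of all 9251 genes tested were there. That mouse was the lowest vehicle mouse for both genes, so it is singled out by the values tested. The floor of 1 CPM, 10.06 to 19.58 reads, limits what can be said of Trex1, Mb21d1, Aim2 and Ikbke.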

Other observations

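The chance that a gene was listed at 0 differed between mice. Among 2742 genes with a mean of 10 to 20 CPM, the range that holds Tbk1, Tlr3 and Mavs, 28.5% of values were listed at 0 over all mice. The share was 2.30% in BDE-47 replicate 3 and 6.49% in vehicle replicate 1, and from 14.8% to 44.5% in the other 13 mice. At the median depth, the median gene of that range stood for 211 reads, far above the floor. Why such genes were listed at 0 was not tested. Over all pairs of mice, Pearson's r across the genes tested ran from 0.343 to 0.794. BDE-47 replicate 3 was the mouse with the most sensing genes above the floor, 8 of 10, and the only dosed mouse with Mb21d1.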
